A study of Mus musculus with 11 samples.

Results

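Chemokines are small secreted proteins that draw leukocytes along a gradient and hold them at a vessel wall. Here 10 chemokine genes were followed through the vessel and myeloid cells of the mouse brain: Ccl2, Ccl3, Ccl4, Ccl5, Ccl7, Ccl12, Cxcl10, Cxcl12, Cx3cl1 and Pf4. They were taken by their gene symbols, 10 of the 32287 genes in the count tables, and all 10 were found. The values are raw molecule counts (unique molecular identifiers, UMIs, 1 for each captured mRNA), added up within each mouse for each cell type.

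The cells came from the brain vessels of 11 mice. In 6 R182C-TgN3 mice (line Tg350) the transgene is human NOTCH3 with R182C, an arginine-to-cysteine change found in CADASIL, an inherited small vessel disease, and in the 5 control mice, WT-TgN3 (line Tg100), it is wild-type human NOTCH3. Both groups therefore carry a human transgene, and the disease change and the line cannot be told apart. The mice were untreated, of both sexes, and 6 or 9 months old: R182C-TgN3 mice 4 to 6 and WT-TgN3 mice 1 to 3 were 6 months old, and R182C-TgN3 mice 1 to 3 and WT-TgN3 mice 4 and 5 were 9 months old. Vessel fragments were pulled out with antibodies to CD31, an endothelial surface protein, so microglia, macrophages and mural cells are those that stayed with the vessels. Each mouse gave 1 library of 17550806 to 64215050 UMIs, and preparation dates differ between the ages, so that age and preparation batch cannot be told apart. The 6 libraries of 6-month mice shared barcodes with each other, 1.16% to 10.2% of the smaller library in a pair, most between R182C-TgN3 mice 4 and 5 (350 barcodes), while no other pair shared more than 0.855%. Every test was therefore also run without the barcodes that occur in another library, and calls that changed are given beside the result or in the closing section on processing. The gene tables do not separate the transgene's alleles, so the genotype labels were not checked here.

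Cells were assigned by marker genes, none of which is a chemokine. After filtering, 58498 of 66658 barcodes remained, and 1678 of these occurred in another library, among them 455 of the venous cells, 219 of the microglia and 0 of the perivascular macrophages described next. The assignment gave 13593 microglia, the resident macrophages of the brain tissue, and 120 perivascular macrophages, which sit in the space around larger vessels. Endothelial cells numbered 36213, of which 4491 carried arterial, 17286 capillary, 5001 venous and 1332 fenestrated markers and 9435 none clearly. There were 2016 smooth muscle cells, 554 pericytes, 87 fibroblasts, 306 T or NK cells and 719 B cells. Only mice with 10 or more cells of a type were compared, so that perivascular macrophages are represented by 6 mice (92 cells) and fibroblasts by 4 mice (54 cells). In 22.5% of the macrophages the marker score lay near the limit of the gate, against 2.9% of the microglia. The summed macrophage markers reached 6324 CPM (UMIs per 1000000 UMIs of the summed cells) in the macrophages and 8.28 CPM in the microglia, and the summed microglial markers 11231 CPM in the microglia and 1637 CPM in the macrophages.

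The 10 genes fall into families with known partners. Ccl3, Ccl4 and Ccl5 are inflammatory CC chemokines that draw monocytes and T cells. Ccl2, Ccl7 and Ccl12 are ligands of CCR2, the receptor through which monocytes leave the blood. Cxcl10 is an interferon- and NF-kB-inducible ligand of CXCR3 on activated T cells, Cxcl12 signals through CXCR4 and is cleared by the scavenger receptor ACKR3, Cx3cl1 (fractalkine) is a membrane-bound ligand of CX3CR1 on microglia, and Pf4 (platelet factor 4) is best known from platelet granules. In the GENCODE annotation of GRCm38, Ccl2 (chr11:82035571-82037453), Ccl7 (chr11:82045712-82047525) and Ccl12 (chr11:82101845-82103400) lie within 67.8 kb on the plus strand. Ccl5 (chr11:83525778-83530518, minus strand), Ccl3 (chr11:83647844-83649355, minus strand) and Ccl4 (chr11:83662584-83664683, plus strand) lie within 138.9 kb of the same chromosome. Pf4 (chr5:90772435-90773383, plus strand) and Cxcl10 (chr5:92346638-92348889, minus strand) share chromosome 5, Cxcl12 lies at chr6:117168535-117181367 and Cx3cl1 at chr8:94772009-94782427, both on the plus strand. Each is a protein-coding gene.

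Promoters of 6 of the 10 genes were matched in the RefSeq table of GRCm38.p6, each with 250 bases before and 50 bases from the annotated start on. Shown are 4 of them, each with another pattern of cell types described next: Cxcl10 (venous endothelium, microglia and fibroblasts), Cxcl12 (capillaries), Ccl3 (microglia) and Ccl12 (both myeloid types). The promoters of Pf4 (macrophages) and Cx3cl1 (arterial endothelium) were matched too but are not shown. Capitals mark matches to GGG and CC with any 5 bases between them (an NF-kB-type motif), to GAAA and GAAA with any 2 bases between them (an interferon response element), to TGANTCA (AP-1) or to TATAAA, and positions count from the start base as 0.
Cxcl10 (chr5:92348840-92349139, minus strand): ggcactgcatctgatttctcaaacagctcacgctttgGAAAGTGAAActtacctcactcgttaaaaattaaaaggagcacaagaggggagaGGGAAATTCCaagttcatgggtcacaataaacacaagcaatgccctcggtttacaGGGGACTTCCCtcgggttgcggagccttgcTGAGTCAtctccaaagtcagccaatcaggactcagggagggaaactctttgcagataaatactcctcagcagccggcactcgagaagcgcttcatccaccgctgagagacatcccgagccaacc
Cxcl12 (chr6:117168285-117168584, plus strand): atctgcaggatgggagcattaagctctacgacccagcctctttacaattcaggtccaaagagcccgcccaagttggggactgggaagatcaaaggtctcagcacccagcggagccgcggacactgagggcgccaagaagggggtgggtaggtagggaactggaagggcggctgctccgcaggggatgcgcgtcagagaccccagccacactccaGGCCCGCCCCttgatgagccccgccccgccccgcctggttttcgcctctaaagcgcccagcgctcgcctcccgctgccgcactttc
Ccl3 (chr11:83649329-83649628, minus strand): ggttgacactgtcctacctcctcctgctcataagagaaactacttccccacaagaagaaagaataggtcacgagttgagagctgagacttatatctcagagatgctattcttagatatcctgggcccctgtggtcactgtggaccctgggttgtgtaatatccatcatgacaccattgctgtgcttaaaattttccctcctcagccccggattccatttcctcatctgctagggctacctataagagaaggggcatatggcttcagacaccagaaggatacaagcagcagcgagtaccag
Ccl12 (chr11:82101595-82101894, plus strand): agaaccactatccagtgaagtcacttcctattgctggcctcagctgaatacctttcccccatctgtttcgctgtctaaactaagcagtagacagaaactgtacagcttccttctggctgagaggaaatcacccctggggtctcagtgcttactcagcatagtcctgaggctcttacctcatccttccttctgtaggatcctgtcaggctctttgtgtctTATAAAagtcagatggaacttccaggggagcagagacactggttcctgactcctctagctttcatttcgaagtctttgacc
The Cxcl10 promoter held an interferon response element at -213, NF-kB-type matches at -159 and, overlapping each other, at -104 and -103, and an AP-1 match at -74. Over all 32851 promoters of the table, on both strands, the NF-kB-type motif occurred in 50.8%, the interferon element in 3.44% and the AP-1 motif in 7.81%, so the first is common by itself. Cxcl12 held a GC-rich NF-kB-type match at -36 on the minus strand, overlapping one of its 5 matches to GGGCGG, a motif in 35.7% of promoters. Ccl12 held TATAAA, found in 13.6% of promoters, at -31, and Ccl3 held none of these motifs in this window. A match is a run of letters and not a measured binding site.

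The levels of the 10 genes separated the cell types. Ccl3 and Ccl4 were highest in microglia, Ccl2, Ccl7, Ccl12 and Pf4 in perivascular macrophages, Cxcl12 in capillary and Cx3cl1 in arterial endothelial cells among 8 vessel and myeloid types, and Cxcl10 in fibroblasts, followed by venous endothelial cells and microglia. Ccl5 belonged to T or NK cells. Levels are CPM of a gene within the summed cells, as mean ± SD over mice, and counts from the 3′ end do not put different genes on 1 scale, so each gene is compared only with itself. Cell types were compared by edgeR's quasi-likelihood test with the mouse as a block, a difference being called at a Benjamini-Hochberg-adjusted p under 0.05 over 13030 genes. For 8 of the genes (Ccl3, Ccl4, Ccl7, Ccl12, Cxcl10, Cxcl12, Cx3cl1 and Pf4) the highest of the 8 types was called above all 7 others. For Ccl2 it was called above 6 of 7, and for Ccl5 above 5 of 7. Without the barcodes shared between libraries Ccl2 was called above 7 of 7 and Cx3cl1 above 6 of 7. Fenestrated endothelial cells were not among the 8 types and were not tested, and their Cx3cl1 level of 155 ± 30.2 CPM stood above that of arterial cells (110.7 ± 10.1 CPM). Cell types differ in a large share of their genes, and single contrasts between the 8 types called 28.6% to 84.0% of the 13030. How many of these genes have a highest type called above all 7 others was not counted.

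**Figure D1:**
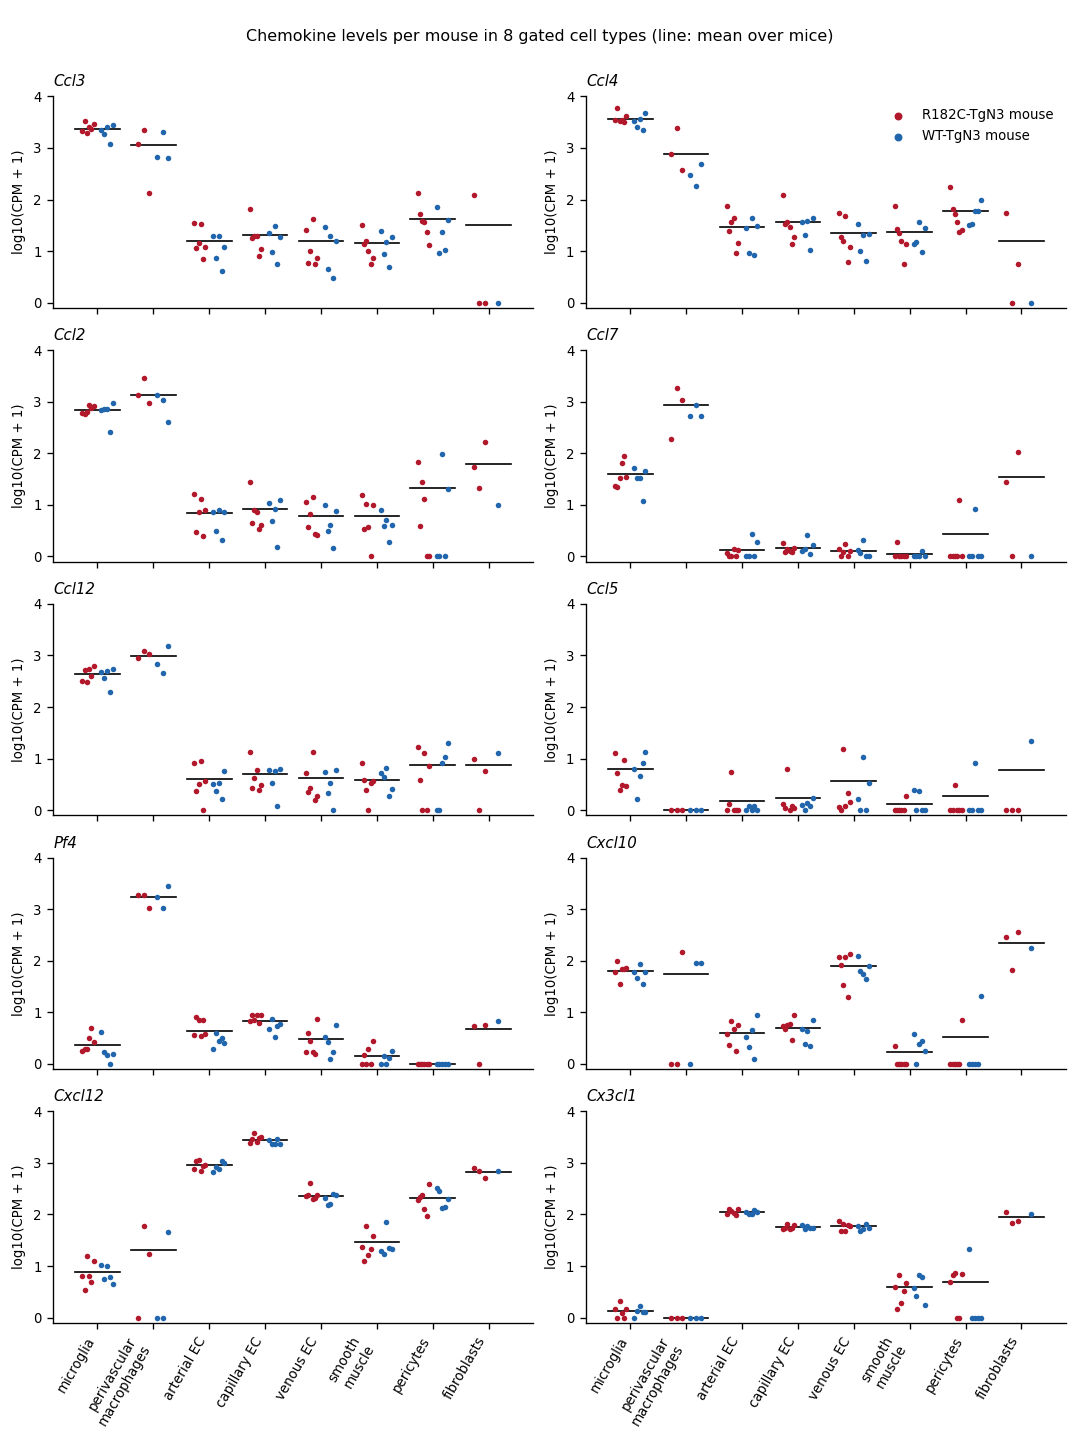
Level of each chemokine (log10 of CPM + 1) in 8 cell types, 1 point per mouse with at least 10 cells of the type, red for R182C-TgN3 and blue for WT-TgN3, and a line at the mean over mice. Ccl3 and Ccl4 stand highest in microglia, Ccl7 and Pf4 in perivascular macrophages, Cxcl12 in capillary endothelial cells, and red and blue points overlap in microglia and the endothelial types.

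Ccl3, the macrophage inflammatory protein 1-alpha, measured 2374 ± 590.0 CPM in microglia (n = 11). In the 6 macrophage samples it read 1191, 2277 and 131 CPM in R182C-TgN3 mice 1 to 3 and 659, 1997 and 645 CPM in WT-TgN3 mice 2 to 4, a mean of 1149.9 ± 839.7 CPM. The lowest microglial value, 1194 CPM in WT-TgN3 mouse 4, was below the 2 highest macrophage values, so the ranges overlap. Within the block of mice, microglia were higher by 1.59 ± 0.29 (log2, ± SE, edgeR adjusted p = 1.06e-05), in a contrast in which 28.6% of all genes were called. When at least 20 cells per mouse were asked for, only WT-TgN3 mouse 2 was left for macrophages. The difference was then 1.53 ± 0.62 and was not called. Macrophages were in turn above pericytes (40.2 ± 36.1 CPM, n = 11) by 4.75 ± 0.42 on the log2 scale (edgeR adjusted p = 6.54e-16), where 35.7% of genes were called.

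Ccl4, macrophage inflammatory protein 1-beta and the neighbour of Ccl3 on the chromosome, measured 3645 ± 1032 CPM in microglia. Its macrophage values were 753, 2406 and 375 CPM in R182C-TgN3 mice 1 to 3 and 293, 181.5 and 495 CPM in WT-TgN3 mice 2 to 4. Only R182C-TgN3 mouse 2 reached the range of microglia, whose lowest value was 2258 CPM. Microglia were above macrophages by 2.83 ± 0.30 (log2, edgeR adjusted p = 1.96e-12), and macrophages above pericytes (59.3 ± 44.6 CPM) by 3.74 ± 0.40 (edgeR adjusted p = 1.95e-12). The mean Ccl4 level of macrophages was 20.6% of the microglial one. Single macrophages also held a median of 37.5% of the microglial markers, and the part of microglial RNA in their Ccl4 was not tested.

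Ccl2, the main attractant of CCR2-bearing monocytes, was high in both myeloid types: 1335 ± 834 CPM in macrophages (n = 6) and 695 ± 181 CPM in microglia (n = 11). Its macrophage values were 1342, 2885 and 963 CPM in R182C-TgN3 mice 1 to 3 and 1355, 1059 and 406 CPM in WT-TgN3 mice 2 to 4, from within to above the microglial range of 261 to 943 CPM. The difference between them, 0.64 ± 0.27 on the log2 scale, was not called (edgeR adjusted p = 0.0656), but was called without the barcodes shared between libraries, at 0.83 ± 0.27 (edgeR adjusted p = 0.0191). Microglia were above fibroblasts by 3.44 ± 0.46 (edgeR adjusted p = 7.77e-10, 57.4% of genes called). Fibroblasts read 54.1, 19.8 and 162 CPM in R182C-TgN3 mice 2, 5 and 6 and 8.81 CPM in WT-TgN3 mouse 4, with mouse 6 far above the other two. Their call over pericytes (20.5 ± 32.4 CPM) was narrow at 1.98 ± 0.77 (log2, edgeR adjusted p = 0.0453, 29.1% of genes called) and was lost without R182C-TgN3 mouse 6, at 0.87 ± 1.03, and under most other alternatives, among them without the shared barcodes (1.97 ± 0.80, edgeR adjusted p = 0.0537). Pericytes and capillary endothelial cells (7.49 ± 7.26 CPM) did not differ by the test for Ccl2 (edgeR adjusted p = 0.0544), a contrast in which 51.4% of all genes were called.

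Ccl7, a CCR2 ligand encoded next to Ccl2, set the 2 myeloid types apart without overlap. Macrophages read 192, 1869 and 1077 CPM in R182C-TgN3 mice 1 to 3 and 537, 877 and 529.9 CPM in WT-TgN3 mice 2 to 4, and microglia between 10.7 and 86.8 CPM. Every macrophage value lay above every microglial one, and the difference was 4.56 ± 0.25 on the log2 scale (edgeR adjusted p = 4.32e-26). Fibroblasts (27.1, 0 and 106 CPM in R182C-TgN3 mice 2, 5 and 6 and 0 in WT-TgN3 mouse 4) and microglia (39.1 ± 21.6 CPM) did not differ by the test (edgeR adjusted p = 0.450). Fibroblasts were called above pericytes (1.70 ± 3.89 CPM), at 4.94 ± 1.14 (edgeR adjusted p = 0.000365). That call was lost without R182C-TgN3 mouse 6 (2.95 ± 1.68) and turned to -3.78 ± 6.75 with a stricter gate.

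Ccl12, the last gene of that group, whose product also acts on CCR2, measured 979 ± 391 CPM in macrophages and 436 ± 131 CPM in microglia. The macrophage values were 876, 1215 and 1077 CPM in R182C-TgN3 mice 1 to 3 and 696, 454 and 1554 CPM in WT-TgN3 mice 2 to 4, and 5 of these 6 lay above the highest microglial value of 635 CPM. The difference was 1.12 ± 0.27 on the log2 scale (edgeR adjusted p = 0.000578). It rested in part on WT-TgN3 mouse 4, which had the highest macrophage and the lowest microglial value (192 CPM), and without that mouse it was 0.63 ± 0.26 and not called (edgeR adjusted p = 0.0776), nor was it among the R182C-TgN3 mice alone (0.88 ± 0.38). Microglia were above pericytes by 6.74 ± 0.49 (edgeR adjusted p = 8.19e-21, 65.3% of genes called).

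In endothelial and smooth muscle cells these genes were near the level that microglial genes reach there. Ccl2, Ccl3, Ccl4, Ccl7 and Ccl12 stood in endothelial cells at 0.729% to 0.984% of their microglial level. The microglial markers had a median of 0.774% there. In smooth muscle cells the 5 chemokines stood at 0.494% to 0.723%, against a median of 0.669% for the markers. In pericytes they stood at 1.17% to 3.36%, against 1.36%, with WT-TgN3 mouse 3 and R182C-TgN3 mouse 1 highest for Ccl2 at 95.8 and 68.2 CPM. Fibroblasts and macrophages were not part of this comparison. The part of free microglial RNA in any of these levels was not tested.

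Pf4 was a macrophage gene here. Macrophages read 1875, 1869 and 1061 CPM in R182C-TgN3 mice 1 to 3 and 1721, 1029 and 2791 CPM in WT-TgN3 mice 2 to 4. The next type, capillary endothelial cells, held 5.73 ± 1.84 CPM, no pericyte had a Pf4 UMI in any of the 11 mice (an upper limit of 1.56 CPM from 3 counts over all pericytes), and microglia held 1.38 ± 1.23 CPM. Macrophages were above capillary cells by 8.12 ± 0.23 (log2, edgeR adjusted p = 1.01e-38, 39.7% of genes called). Platelets carry Pf4 too. All 7 platelet markers, among them Itga2b, Gp9 and Clec1b, were at 0 in the macrophages of all 6 mice (limit 6.69 CPM each). The part of platelet RNA in the macrophage level of Pf4 was not tested.

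Ccl5, a chemokine made by cytotoxic lymphocytes, was low in all 8 vessel and myeloid types, with 5.34 ± 4.05 CPM in microglia and 0 in the macrophages of all 6 mice (limit 6.69 CPM). T or NK cells of 9 mice held 2075 ± 816 CPM, from 657 CPM in WT-TgN3 mouse 2 to 3238 CPM in R182C-TgN3 mouse 2. The same cells held 1068 CPM of Ccl4 and 394 CPM of Ccl3 on average. None of the 7 steps in the order of its levels among the 8 types was called.

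Cxcl12, which retains CXCR4-bearing cells and guides vessel growth, followed the position along the vessel. Capillary endothelial cells ranged from 2298 to 3817 CPM (2771 ± 468, n = 11), arterial ones from 673 to 1139 CPM (895 ± 161) and venous ones from 152 to 399 CPM (228 ± 65.1). No value of 1 segment reached the range of another, in any mouse of either genotype. Capillary cells exceeded arterial cells by 1.64 ± 0.14 (log2, edgeR adjusted p = 1.95e-17), where 46.8% of genes were called. Outside the endothelium, fibroblasts read 808, 687 and 509 CPM in R182C-TgN3 mice 2, 5 and 6 and 696 CPM in WT-TgN3 mouse 4. They were above venous cells by 1.40 ± 0.21 (edgeR adjusted p = 4.80e-08, 40.2% of genes called). Arterial cells were above fibroblasts by 0.60 ± 0.22 (edgeR adjusted p = 0.0215, 41.2% of genes called), a call lost under 6 alternatives, among them DESeq2 (0.38 ± 0.28) and a stricter gate (0.27 ± 0.29), and without R182C-TgN3 mouse 1 or 6 or WT-TgN3 mouse 2 or 5 (0.42 to 0.52). Venous cells and pericytes (212 ± 92.2 CPM) did not differ by the test (0.35 ± 0.18, edgeR adjusted p = 0.112, 52.7% of genes called). Pericytes were above smooth muscle cells (28.3 ± 19.0 CPM) by 2.55 ± 0.22 (edgeR adjusted p = 2.74e-16, 43.3% of genes called). The order in the share of cells with at least 1 Cxcl12 UMI, after each cell was thinned at random to 2000 UMIs, was close to that of the levels: 88.8 ± 2.94% of capillary, 64.7 ± 10.7% of fibroblast, 61.3 ± 5.82% of arterial, 34.5 ± 6.07% of venous cells, 25.8 ± 10.3% of pericytes, 4.37 ± 1.96% of smooth muscle cells and 1.55 ± 0.92% of microglia. Fenestrated endothelial cells, found in brain regions without a tight barrier and in the choroid plexus, held 528 ± 117 CPM.

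Cx3cl1, the ligand by which endothelium and neurons address CX3CR1 on microglia, was an arterial gene among the 3 segments. Arterial values ran from 97.9 to 125 CPM, capillary ones from 51.4 to 65.6 CPM and venous ones from 45.8 to 72.6 CPM. The arterial range lay above both others, while venous and capillary cells could not be separated (0.02 ± 0.06, log2, edgeR adjusted p = 0.789, 45.2% of genes called). Fibroblasts read 108, 66.1 and 74.0 CPM in R182C-TgN3 mice 2, 5 and 6 and 103 CPM in WT-TgN3 mouse 4. Arterial cells were called above them by 0.48 ± 0.19 (edgeR adjusted p = 0.0383), a call lost with DESeq2, its size factors, a stricter gate, doublets kept, either genotype alone, without the barcodes shared between libraries (0.39 ± 0.19, edgeR adjusted p = 0.101) and without each of 9 mice in turn, down to 0.36 without R182C-TgN3 mouse 6. Fibroblasts and venous cells did not differ by the test (edgeR adjusted p = 0.0613), and did without the shared barcodes (0.56 ± 0.21, edgeR adjusted p = 0.0260). Capillary cells were above pericytes (3.88 ± 6.16 CPM) by 3.85 ± 0.33 (edgeR adjusted p = 1.75e-16). Microglia held 0.346 ± 0.326 CPM and macrophages none in 6 mice. Fenestrated endothelial cells, outside this test, had the higher mean given above.

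Cxcl10, the interferon-inducible attractant of T cells, was a venous gene within the endothelium. Venous values were 18.5 CPM at the lowest, 77.3 CPM at the median and 134 CPM at the highest, while arterial cells held 3.05 ± 2.30 CPM and capillary cells 3.93 ± 1.99 CPM. The lowest venous mouse, R182C-TgN3 mouse 5, was still above every capillary value, the highest of which was 7.87 CPM. Fibroblasts read 293, 66.1 and 352 CPM in R182C-TgN3 mice 2, 5 and 6 and 176 CPM in WT-TgN3 mouse 4, above venous cells by 1.47 ± 0.30 (log2, edgeR adjusted p = 3.79e-05). With a stricter gate that difference was 0.79 ± 0.61 and was not called. Venous cells (78.4 ± 39.8 CPM) and microglia (62.3 ± 20.1 CPM) did not differ by the test (edgeR adjusted p = 0.350), in a contrast in which 84% of all genes were called. Macrophages had none in 3 of 6 mice and 147, 90.8 and 88.3 CPM in R182C-TgN3 mouse 3 and WT-TgN3 mice 3 and 4. They did not differ from microglia by the test (edgeR adjusted p = 0.598) and were called above capillary cells (3.56 ± 0.92, edgeR adjusted p = 0.000976). With at least 20 cells per mouse, only WT-TgN3 mouse 2 was left for macrophages. Its macrophages held no Cxcl10 UMI, and the difference was -6.44 ± 18.5.

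**Figure D2:**
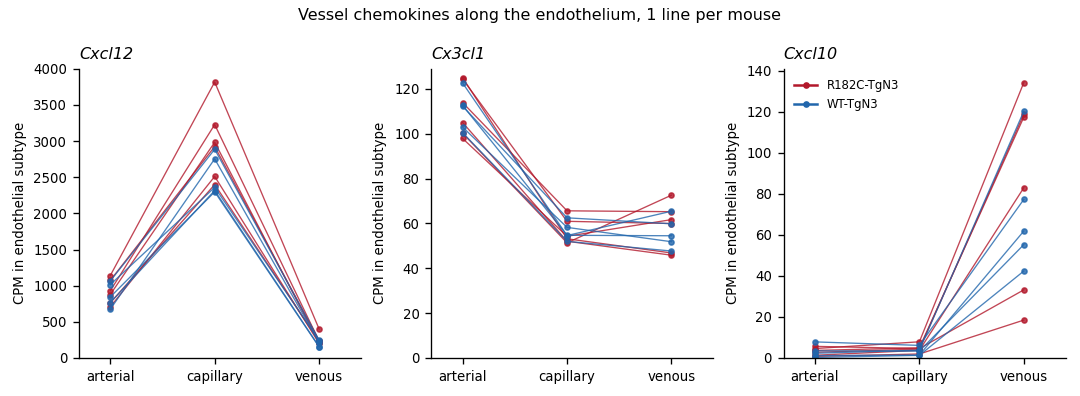
CPM of Cxcl12, Cx3cl1 and Cxcl10 in arterial, capillary and venous endothelial cells, 1 line per mouse, red for R182C-TgN3 and blue for WT-TgN3. Cxcl12 peaks in capillary cells, Cx3cl1 is highest in arterial cells and Cxcl10 is highest in venous cells in each of the 11 mice.

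Single microglial cells carried these genes in combination. With each cell thinned to 2000 UMIs (11745 cells, 1848 shallower cells left out), 72.3 ± 6.50% of microglia held a Ccl4 UMI, 69.8 ± 7.11% Ccl3, 43.9 ± 8.48% Ccl2, 32.6 ± 7.58% Ccl12, 4.89 ± 1.60% Cxcl10 and 3.69 ± 1.84% Ccl7 (n = 11 mice). Unthinned shares were 76.9%, 73.8%, 55.1%, 46.4%, 6.62% and 5.20%. In endothelial cells the thinned shares were 7.05% for Ccl4, 4.24% for Ccl3 and 1.62% for Ccl2. The part of free microglial RNA in these endothelial shares was not tested. Cxcl10 reached 8.67% in venous cells, above its microglial share. Of Ccl2, Ccl3, Ccl4 and Ccl12, none was found in 8.23 ± 5.07% of microglia, exactly 1 in 17.2 ± 4.15%, 2 in 34.0 ± 2.71%, 3 in 28.9 ± 5.52% and all 4 in 11.7 ± 3.92%. WT-TgN3 mouse 4 stood apart, with none in 20.8% and all 4 in 3.54% of its cells.

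**Figure D3:**
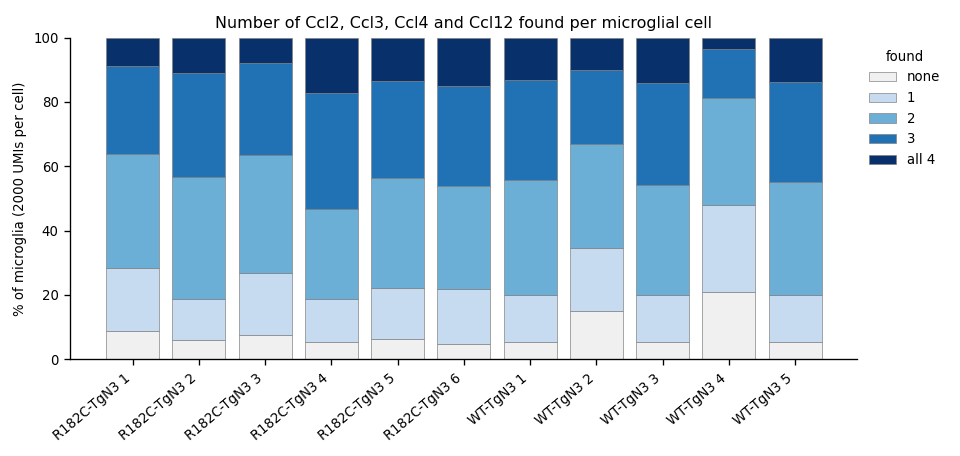
Percent of microglia, 1 bar per mouse, in which 0, 1, 2, 3 or all 4 of Ccl2, Ccl3, Ccl4 and Ccl12 had a UMI, with every cell thinned to 2000 UMIs. In WT-TgN3 mouse 4 the share with none reaches 20.8%, the highest of the 11 mice.

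Pairs of these genes were counted in the same cells. Ccl4 was present in 82.0 ± 4.47% of microglia with Ccl3 and in 49.9 ± 5.88% of those without it, with no overlap between the ranges over mice (72.9% to 91.1% and 41.0% to 56.7%). Ccl2 was present in 76.0 ± 9.79% of cells with Ccl7 and in 46.2 ± 4.76% of those without it (8 mice), again without overlap. Ccl2 was present in 53.8 ± 8.74% of cells with Ccl12 and in 39.2 ± 7.38% of those without, and in 46.8 ± 7.47% of cells with Ccl3 and in 38.0 ± 9.80% of those without. Ccl12 was present in 42.0 ± 9.42% of cells with Ccl7 and in 34.4 ± 6.22% of those without (8 mice). In these last 3 pairs the ranges over mice overlap. UMIs were concentrated in a minority of cells: the 10% of microglia with the most UMIs of a gene held 37.7 ± 4.86% of all Ccl3 UMIs, 39.4 ± 4.66% of Ccl4, 54.7 ± 6.83% of Ccl2 and 64.0 ± 6.44% of Ccl12, and the same share of capillary cells held 28.5 ± 1.70% of Cxcl12. The variance over the mean of these microglial UMIs per cell gave another order. Its medians over mice were 10.3 for Ccl4, 6.29 for Ccl3, 4.44 for Ccl2 and 3.86 for Ccl12. A rarer gene reaches a higher share by counting alone, so the shares do not rank the genes. All shares here are descriptions of cells that share a library, without a test.

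Cells with a Cxcl10 UMI differed from the other cells of their type in 3 further gene lists. The NF-kB response list (15 genes such as Nfkbia, the inhibitor that NF-kB induces to switch itself off) summed to 84.4 ± 13.3 UMIs per 10000 in microglia with Cxcl10 and 53.2 ± 7.50 in those without. In venous cells the sums were 46.9 ± 10.5 and 26.8 ± 4.25. In both types they were higher in the cells with Cxcl10 in 11 of 11 mice. Interferon-stimulated genes (12 genes such as Isg15) summed to 4.63 ± 2.47 against 2.12 ± 0.36 in microglia (11 of 11 mice) and to 9.49 ± 2.63 against 7.75 ± 2.01 in venous cells (9 of 11 mice). A dissociation stress list (14 genes such as Fos and Jun, which tissue digestion can induce) moved too: 247 ± 45.2 against 140 ± 26.6 in venous cells (11 of 11 mice) and 291 ± 50.6 against 273 ± 57.4 in microglia (9 of 11). Ccl3, Ccl4, Ccl2 and Ccl12 showed the NF-kB list higher in 11 of 11 mice as well, for Ccl3 at 58.2 ± 7.66 against 47.4 ± 7.83. The interferon list was higher in 10 of 11 mice for Ccl12 (2.93 ± 1.05 against 1.83 ± 0.29). It was higher in 8 mice for Ccl2, 6 for Ccl3 and 5 for Ccl4. The stress list was higher in 10 mice for Ccl2 and Ccl3 and in 8 for Ccl4 and Ccl12. The part of tissue digestion in any of these levels was not tested. The cells were not thinned here, so that deeper cells were more often counted as positive, and the part of depth was not tested either.

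The 2 genotypes did not differ by the test in any of the 10 chemokines. In microglia, R182C-TgN3 mice ranged from 1982 to 3372 CPM for Ccl3 with a median of 2482, and WT-TgN3 mice 1 to 5 read 2247, 1867, 2511, 1194 and 2835 CPM. For Ccl4, R182C-TgN3 mice ranged from 3205 to 5999 CPM with a median of 3461, and the control mice read 3276, 2566, 3585, 2258 and 4711 CPM. The ranges overlap for both genes, with the lowest value in WT-TgN3 mouse 4 and the highest in R182C-TgN3 mouse 2. The fitted differences (R182C-TgN3 minus WT-TgN3, log2, edgeR quasi-likelihood test on the summed counts, adjusted over all genes tested) were 0.31 ± 0.20 for Ccl3 and 0.30 ± 0.21 for Ccl4 (adjusted p = 1.00 for each). Without WT-TgN3 mouse 4 they were 0.14 for Ccl3 and 0.18 for Ccl4. Within the 3 batches with both genotypes the log2 ratio of the mean CPM was 0.46, 0.27 and 0.24 for Ccl3 and 0.44, 0.19 and 0.25 for Ccl4 (2 against 2, 2 against 2 and 1 against 1 mice).

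The CCR2 ligands gave smaller differences in microglia. R182C-TgN3 mice ranged from 588 to 858 CPM for Ccl2 with a median of 701, and the control mice 1 to 5 read 688, 726, 732, 261 and 943 CPM. For Ccl12, R182C-TgN3 mice ranged from 305 to 635 CPM with a median of 459, and the control mice read 468, 369, 504, 192 and 543 CPM. WT-TgN3 mouse 4 again lay below every other mouse for both. The log2 differences were 0.11 ± 0.23 for Ccl2, 0.16 ± 0.25 for Ccl12, 0.29 ± 0.36 for Ccl7 and 0.24 ± 0.24 for Cxcl10 (edgeR adjusted p = 1.00 for each). Without WT-TgN3 mouse 4, Ccl2 and Ccl12 turned to -0.11 and -0.04. That mouse also had the lowest NF-kB list sum in microglia (4305 CPM), and R182C-TgN3 mouse 2 the highest (7100 CPM).

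**Figure D4:**
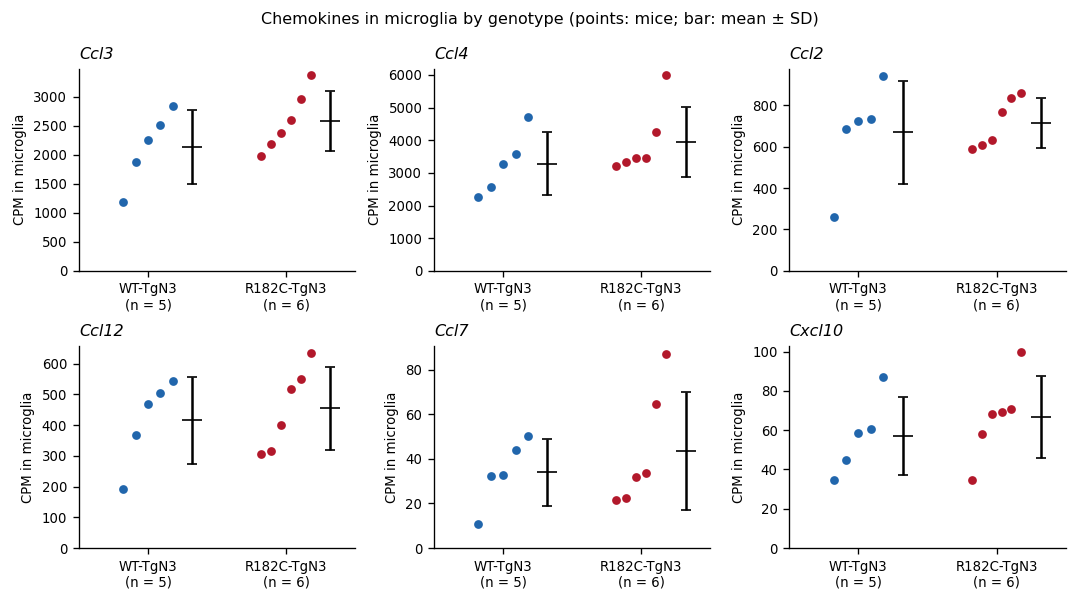
CPM of 6 chemokines in the microglia of 5 WT-TgN3 mice (blue) and 6 R182C-TgN3 mice (red), points ordered by value, with the mean ± SD beside them. The groups overlap in each panel, and the lowest blue point is WT-TgN3 mouse 4, at 261 CPM for Ccl2 and 1194 CPM for Ccl3.

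In perivascular macrophages (3 against 3 mice) Ccl4 gave the lowest adjusted p of any chemokine and type. The difference was 1.73 ± 0.52 on the log2 scale (edgeR adjusted p = 0.622), and 0.68 ± 0.44 without R182C-TgN3 mouse 2. The values overlap, since R182C-TgN3 mouse 3 (375 CPM) lay below WT-TgN3 mouse 4 (495 CPM). The summed NF-kB list ran from 3770 to 4120 CPM in the R182C-TgN3 macrophage samples and from 2305 to 3540 CPM in the controls. How often other lists or genes separate 3 against 3 mice was not counted. Among the genes tested there, 13 of 13 dissociation stress genes had a positive fold change (median 0.52). So did 7 of 8 NF-kB genes (0.34) and 0 of 2 interferon-stimulated genes (-0.43). The part of any of these lists, or of microglial RNA, in the Ccl4 difference was not tested. Ccl4 was called with no filter on low counts (1.82 ± 0.39, edgeR adjusted p = 0.00492) and with sex in the model (2.25 ± 0.44, edgeR adjusted p = 0.0233), and under none of the other alternatives, whose adjusted p ran from 0.151 to 1.00. In the 1 batch with both genotypes (2 against 1 mouse) the log2 ratio of the mean CPM was 1.68. Ccl2 (0.86 ± 0.44), Ccl7 (0.72 ± 0.51), Ccl3 (0.18 ± 0.58), Ccl12 (0.14 ± 0.40) and Pf4 (-0.27 ± 0.38) were not called either. Among the 9-month mice alone, 3 against 1, Ccl2 was called at 2.02 ± 0.54 (edgeR adjusted p = 0.0298).

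In the vessel wall, Cxcl12 in capillary cells had an unadjusted p under 0.05 but was not called. R182C-TgN3 mice ranged from 2398 to 3817 CPM with a median of 2954, and WT-TgN3 mice 1 to 5 read 2754, 2298, 2316, 2886 and 2359.9 CPM. The difference was 0.29 ± 0.13 (log2, edgeR adjusted p = 1.00). Within the batches that held both genotypes, the log2 ratio of the mean CPM was 0.02 (2 against 2 mice), 0.12 (2 against 2) and 0.48 (1 against 1), and the highest mouse, R182C-TgN3 mouse 3, was alone in its batch. Cxcl12 differed by 0.38 ± 0.19 in venous, 0.11 ± 0.15 in arterial cells and 0.04 ± 0.29 in pericytes. Cxcl10 in venous cells overlapped widely: 18.5 to 134 CPM in R182C-TgN3 mice and 120.3, 61.9, 55.3, 42.4 and 77.3 CPM in WT-TgN3 mice 1 to 5, a difference of 0.33 ± 0.40 (edgeR adjusted p = 1.00). Cx3cl1 was close in both genotypes, at 111 ± 11.9 CPM in R182C-TgN3 and 110.2 ± 8.84 CPM in WT-TgN3 arterial cells, a difference of 0.06 ± 0.10. In fibroblasts 3 R182C-TgN3 mice stood against the single WT-TgN3 mouse 4, whose values were 8.81 CPM for Ccl2 and 0 for Ccl7, so that the lone control is taken to vary like the other group.

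**Figure D5:**
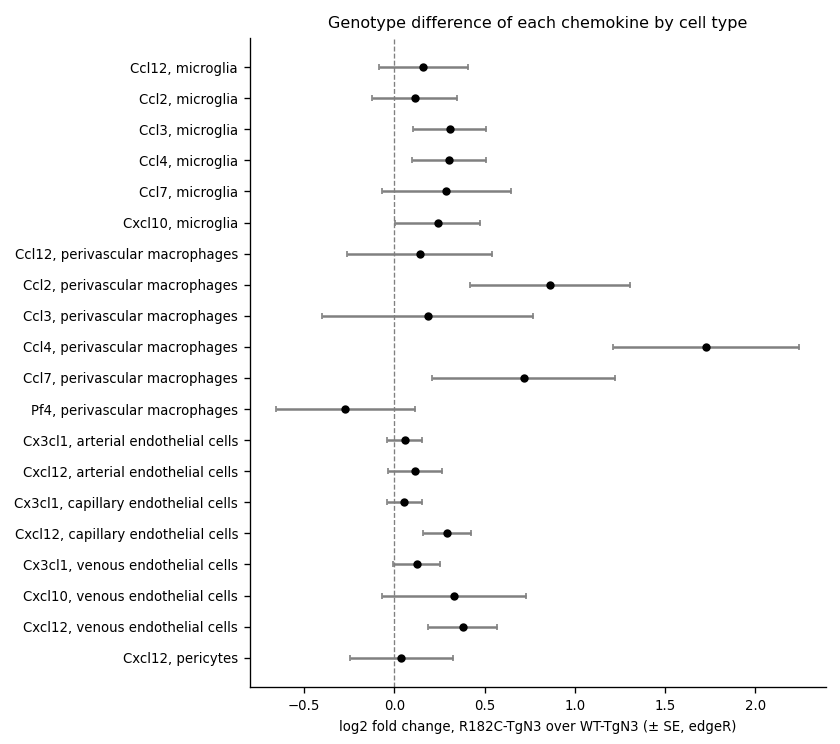
Log2 fold change of R182C-TgN3 over WT-TgN3 with its standard error (edgeR) for 20 pairs of chemokine and cell type, fibroblasts with their single control mouse left out. Macrophage Ccl4 lies farthest from 0, at 1.73 ± 0.52, and no pair passed the test after adjustment.

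Over all 53 tests of a chemokine in a cell type, 0 were called by edgeR, 49 had a positive fold change and 7 an unadjusted p under 0.05. Those 7 were macrophage Ccl4, capillary Cxcl12, Pf4 in capillary and in all endothelial cells (0.64 ± 0.23 and 0.78 ± 0.24, at levels under 10 CPM), and Ccl2, Ccl3 and Ccl7 in fibroblasts. The cell types share their mice and free RNA, so that the 53 tests are not independent of each other. All endothelial cells were also tested beside their own arterial, capillary and venous parts, so the same cells count more than once. Over all genes tested in a type, the median log2 fold change ran from -0.00085 in pericytes to 0.049 in fibroblasts. The share of all genes with a positive fold change was not counted. As background, edgeR called 0% of 10905 genes in microglia (107 with an unadjusted p under 0.05), 0% of 1241 in macrophages (67), 0% of 12985 in endothelial cells (187), 0% of 10371 in arterial (183), 0% of 11536 in capillary (224) and 0% of 10908 in venous cells (277), 0.0114% of 8750 in smooth muscle cells, 0.0414% of 2413 in pericytes and 0% of 5451 in fibroblasts (169). DESeq2 called 0 of the chemokines in any type, and 1 gene each in macrophages, venous cells, smooth muscle cells and pericytes. The test of whether the genotype difference in microglia depends on age called 0% of 11488 genes (250 with an unadjusted p under 0.05) and 0 of the 9 chemokines tested. No share of microglia with a UMI passed the test either: Ccl3 was found in 72.5 ± 3.60% of microglia on average with the R182C transgene and in 66.5 ± 9.24% with the wild-type one (exact permutation test over mice, two-sided, p = 0.199, adjusted over 10 genes 0.768), the lowest p of the 10.

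Lists of genes that respond with chemokines were counted beside them. In microglia, 12 of 15 NF-kB response genes, 7 of 12 interferon-stimulated genes and 9 of 14 dissociation stress genes had a positive fold change, with medians of 0.06, 0.03 and 0.05 against 0.01 over all genes. In venous cells the counts were 11 of 11, 9 of 12 and 14 of 14, with medians of 0.27, 0.14 and 0.23 against 0.00. In smooth muscle cells 1 of 14 stress genes was positive, with a median of -0.11 against 0.00, and in arterial cells 6 of 10 NF-kB genes were, with a median of 0.01 against 0.00. In macrophages 7 of 8 NF-kB and 13 of 13 stress genes were positive, with medians of 0.34 and 0.52 against 0.02, and both interferon genes tested were negative. None of these genes was called by edgeR in any of the 9 types. Genes of a list can move together within a mouse, so these counts do not stand for independent differences. No list was tested as a whole.

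Age, which goes with the batch of preparation, was looked at as levels alone. Ccl7 in microglia read 32.1 to 86.8 CPM in the 6 mice of 6 months and 10.7 to 44.1 CPM in the 5 mice of 9 months, and Ccl2 688 to 858 CPM against 261 to 943 CPM. The younger mice were thus the tighter group for Ccl2, and both genes overlapped between the ages. Venous Cxcl12 read 152 to 234 CPM at 6 months and 229 to 399 CPM at 9 months, with an overlap of a single mouse's value. Cx3cl1 stayed level, at 56.7 ± 4.55 CPM (n = 6) and 55.9 ± 5.61 CPM (n = 5) in capillary cells. The log2 ratio of the genotypes in microglial Ccl3 was 0.26 at 6 months (3 against 3 mice) and 0.32 at 9 months (3 against 2 mice).

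Receptors for these ligands were looked up in the same cells. Among 19 receptor genes, microglia held 2822 ± 323 CPM of Cx3cr1, the receptor of Cx3cl1 and 128 ± 26.8 CPM of Ccrl2, a non-signalling receptor. Macrophages held 569 ± 373 CPM of Cx3cr1 and 149 ± 110 CPM of Ccr1. The Cxcl12 scavenger Ackr3 was the highest receptor of pericytes (347 ± 112 CPM) and smooth muscle cells (117 ± 36.0 CPM), and stood at 58.3 ± 11.6 CPM in capillary, 49.0 ± 12.2 CPM in arterial and 45.7 ± 8.57 CPM in venous cells. Ackr1, the atypical receptor that presents chemokines on venules, was the highest receptor of venous cells at 75.2 ± 67.4 CPM, from 3.87 to 234 CPM over mice, and stood below 1 CPM on average in arterial and capillary cells. None of the receptors tested was called between the genotypes in any of the 9 types, nor was any other chemokine that was tested. Of the 23 other chemokines found in the data, that test covered 0 in pericytes and 1 in smooth muscle cells. It covered 2 in macrophages, 6 in microglia and at most 10, in all endothelial cells together.

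Those 23 other chemokines filled in the pattern of each type. Macrophages held 297 ± 435 CPM of Cxcl2, a neutrophil attractant, 213 ± 86.9 CPM of Ccl24, an eosinophil attractant, and 209 ± 151 CPM of Ccl8, a monocyte attractant. Fibroblasts held 130.0 ± 83.5 CPM of Cxcl1, a neutrophil attractant, 102 ± 32.5 CPM of Cxcl16 and 43.0 ± 26.1 CPM of Cxcl14. Venous cells held 66.6 ± 25.5 CPM of Cxcl1, 29.98 ± 15.7 CPM of Cxcl2 and 20.3 ± 4.16 CPM of Ccl25 beside their Cxcl10. Pericytes led with Ccl19, a CCR7 ligand, at 74.7 ± 116 CPM, and microglia with Ccl6 at 63.7 ± 10.98 CPM, Ccl9 at 49.5 ± 10.2 CPM and Cxcl16 at 44.4 ± 5.01 CPM.

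The genes whose log2 CPM ran most closely with each chemokine over the 76 sums of mouse and cell type were, for Ccl3, Ccl4 (Pearson's r = 0.97) followed by the complement genes C1qc and C1qb, and for Ccl4 the same in turn. Ccl2 ran with Bcl2a1b, Spi1 and Ccl12 (0.93, 0.92 and 0.92), Ccl12 with Ms4a6d, C1qc and C1qa (0.96, 0.96 and 0.94), Ccl7 with Lilrb4a, Ifi207 and Ms4a6c (0.92 each) and Pf4 with Rgs18 (0.95), Cd209f (0.92) and Mgl2. Cxcl12 ran with Cgnl1, Emcn and Grb14 (0.92, 0.91 and 0.91), and Cx3cl1 with Gata2, S100a16 and Fam217a (0.94, 0.93 and 0.93). Cxcl10 (0.75 with Zfp36l2) and Ccl5 (0.61 with Bnc2) had no close partner. The sums share mice and cell types, so these values describe likeness of pattern and carry no test.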

How the data were processed

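Brain vessel fragments of 11 mice were isolated with antibodies to CD31, digested to single cells and sequenced from the 3′ end (10x Genomics). Per the labels and the study's methods, the authors made the deposited count matrices with Cell Ranger 7.0.0 on the mm10 transcriptome with human NOTCH3 added. The values are raw UMI counts per gene and barcode, from which every other number here was computed.

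Barcodes were kept from 500 genes upward and up to a mitochondrial share of 10%, and doublets were removed by score, 0.8% per 1000 barcodes. Each cell was scored against marker lists and took a class at a score of 0.25 or more with the next class below 0.5 of it (stricter gate 0.4 and 0.33); 1790 cells in 2 classes and 1121 in none were left out. UMIs were summed per mouse and class. As in the study, the tests did without the genes of ribosomal proteins, the mitochondrial genes and those whose symbols begin with Gm or end in Rik. Genotypes were compared without covariates by edgeR 4.0.16 (quasi-likelihood, TMM, default expression filter) in R 4.3.3, with Benjamini-Hochberg adjustment over all genes tested, and cell types in 1 fit with the mouse as a block. Shares of cells were compared by exact permutation over mice. The alternatives were DESeq2 1.42.0, its size factors, no expression filter, all genes kept, batch, sex or replicate number in the model, each age or genotype alone, other cell filters, a stricter gate, at least 20 cells, and each mouse left out. Leaving out every barcode found in another library was added after the data were seen. The fit was tested on simulated data. Python 3.11.15 did the rest.

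Depth limits rare classes most: 3 counts in the 92 macrophages equal 6.69 CPM, and such limits cover counting error only. Nothing in the labels says that the mice of a group shared a litter. Samples carry replicate numbers within age and genotype. The deviations of same-numbered microglial samples from their genotype mean correlated at 0.14 to 0.48 in all 5 pairs. This was not so in every pair of the other types. The mice of each pair also share age and preparation batch, so the number cannot be told apart from these. All 5 control mice were used, although the study left 1 out. Named were the 10 chemokines, the 3 highest receptors and other chemokines of a type, and the 3 genes most like each chemokine (log2 of CPM + 1). Genotype values were printed for means of at least 10 CPM and 2% of the highest type, a rule chosen after the levels were seen. Some values of the receptor and marker lists are not reported here. The chemokines and all lists were chosen with earlier results of these data known.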

Additional observations from a re-analysis of the deposited data

Results flagged for a closer look

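Of 40 groups of 5 or 6 mice looked at for a mouse that stands apart from its own group by Dixon's rule, 2 held one, and chance gives about 1 in 20 groups. Cxcl12 in venous endothelial cells stood at 399 CPM in R182C-TgN3 mouse 3, against 237 CPM in the next mouse of its group. That mouse was alone in its preparation batch and also had the highest capillary Cxcl12. A Ccl4 UMI was found in 82.1% of the microglia of R182C-TgN3 mouse 2, against 74.4% in the next mouse of its group, and the NF-kB list sum in microglia was the highest of all 11 mice there.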

How the results depend on the processing

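The number of chemokines called by genotype stayed at 0 in microglia, endothelial types, smooth muscle cells and pericytes under all alternatives run. In macrophages it was 1 without an expression filter, 1 with sex in the model and 1 among 9-month mice. In fibroblasts it was 3 without the filter, and 0 to 2 with a mouse left out. With replicate number as a block it was 0 in each type in which the block could be fitted, and the block, which leaves out R182C-TgN3 mouse 3 for want of a partner, changed no call of a chemokine. No paired analysis was possible for macrophages and fibroblasts because too few numbers are shared. Genotype fold changes turned their sign as follows (log2). Among 9-month mice microglial Ccl7 was -0.20, macrophage Ccl12 -0.62, arterial Cxcl12 -0.0029 and arterial Cx3cl1 -0.0012. Among 6-month mice pericyte Cxcl12 was -0.089 and capillary Cx3cl1 -0.0034. With batch in the model macrophage Ccl12 was -0.66 and capillary Cx3cl1 -0.020, which was -0.021 with the replicate block. With at least 1000 genes macrophage Ccl12 was -0.17, and with the stricter gate pericyte Cxcl12 was -0.065. With sex in the model fibroblast Cxcl12 was 0.23, fibroblast Cx3cl1 0.093 and macrophage Pf4 0.085. With 1 mouse left out, ranges were -0.11 to 0.28 for Ccl2 and -0.039 to 0.29 for Ccl12 in microglia (lowest without WT-TgN3 mouse 4), -0.63 to 0.81 for Ccl3, -0.17 to 0.83 for Ccl12 and -0.57 to 0.18 for Pf4 in macrophages, -0.17 to 0.24 for Cxcl12 in pericytes, -0.23 to 0.10 for Cxcl12 in fibroblasts, and -0.016 to 0.092 for Cx3cl1 in capillary cells. Of 70 neighbours in the order of cell types 20 were called. With at least 20 cells per mouse 11 were called. Pairs with fibroblasts could not be tested there, and macrophages came from WT-TgN3 mouse 2 alone, so that the 2 counts do not cover the same pairs. Called were 21 without the barcodes found in another library (18 of the 20, and Ccl2 in macrophages against microglia, Cx3cl1 in fibroblasts against venous cells and Pf4 in venous cells against microglia, 0.75, besides) and 17 to 22 with a mouse left out. Ccl7 in fibroblasts against pericytes turned to -4.30 among WT-TgN3 mice, of which only mouse 4 had enough fibroblasts, and to -3.78 with the stricter gate. Cxcl10 in macrophages against capillary cells turned to -6.44 with at least 20 cells, with macrophages of WT-TgN3 mouse 2 alone. Genes called between the genotypes in macrophages went from 0 to 14 without the filter, 18 at 9 months, 4 with at least 1000 genes, 2 with sex, 1 with DESeq2 and 0 to 8 with a mouse left out (8 without WT-TgN3 mouse 2). In pericytes they went from 1 to 11 without the filter, 6 at 6 months, 0 at 9 months and 2 with the block. In fibroblasts they went from 0 to 32 without the filter, 7 at up to 20% mitochondrial UMIs, 3 with all genes, 2 with sex and 9 to 36 with a mouse left out. They went from 0 to 1 at 9 months in microglia and with DESeq2 in venous cells, and from 0 to 26 without the filter for the age interaction. Fibroblasts with at least 20 cells were not run, since no mouse had them. The causes were not tested.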

Other observations

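Classes outside the vessel wall and the resident myeloid cells held a few chemokine values of single mice. Ccl5 reached 167 CPM in the fenestrated endothelial cells of WT-TgN3 mouse 3 and was at 0 in those of the other 10 mice. Ccl7 reached 98.7 CPM in the B cells of WT-TgN3 mouse 5, against a mean of 9.99 CPM over the 10 mice with at least 10 B cells. In T or NK cells thinned to 2000 UMIs, 34.2 ± 13.1% of cells held a Ccl4 UMI and 21.8 ± 10.1% a Ccl3 UMI, above the 7.05% and 4.24% of endothelial cells. B cells held no Ccl5 in any mouse (limit 1.06 CPM).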
